A study of Homo sapiens with 72 samples.

Results

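At the start of the time courses, 75 long non-coding RNA (lncRNA) genes stood lower in the Ras-transformed line MCF10A-M2 (M2) than in the non-malignant line MCF10A-M1 (M1), while the breast cancer line MDA-MB-231 held them near or above the M1 level. They were chosen from 96411 lncRNA genes by their levels in TPM, a length-corrected share of the library, averaged over the 6 start libraries of each line. With 0.5 added to each mean, the M1 value had to be at least 2.5 times the M2 value and the MDA-MB-231 value at least 0.7 times the M1 value. The M1 mean had to reach 2 TPM, and all 6 M1 libraries had to lie above all 6 M2 libraries. The rule allowed up to 100 genes and 75 met it, ranked here by their M1 over M2 ratio and called by that rank. The start levels therefore describe the choice and carry no test.

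M2 is MCF10A carrying HA-Ras and is labelled pre-malignant, MDA-MB-231 is a human breast cancer line of the triple-negative kind, and M1 is the non-malignant mammary epithelial line MCF10A. All 3 lines were kept overnight without serum. They were then given TGF-β at 5 ng/mL or SB431542 (SB) at 10 µM, and total RNA was sequenced at 0, 2, 8 and 24 h. The 3 biological replicates of the 24 groups made 72 libraries. The TGF-β arm at 0 h consists of the non-stimulated controls. The first SB time point is titled 0 h, while the treatment label of the same samples reads 0.5 h. Both sets are the start libraries here. Each condition rests on a single line, so a difference between lines cannot be told apart from other differences between these 3 lines, and less RNA per cell cannot be told apart from fewer cells that make it.

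An lncRNA is transcribed and usually processed like a messenger RNA but is not translated into a protein of known function, and many lncRNAs are made in few cell types. TGF-β binds a pair of receptor kinases, the type I kinase phosphorylates SMAD proteins, and these enter the nucleus and regulate genes. SB431542 blocks that type I kinase, so the SB arm also removes signalling by TGF-β that the cells make themselves. In normal mammary epithelium TGF-β is known for slowing growth, and in breast cancer cells for invasion and a shift toward mesenchymal features. All identifiers are of the NONCODE catalogue and the files do not pair them with names; 0 of them matched the RefSeq table or the GENCODE annotation used. No position, sequence or function is therefore given for any member, and the labelled cell types could not be checked against protein-coding markers.

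The TPM values were scaled over lncRNA genes alone, and read depth is unknown. In each library 1 gene took 21.1% to 39.6% of the total, the 10 most abundant genes took 56.7% to 78.8%, and 8458 to 16748 genes reached 0.5 TPM. The fewest genes did so in M2 at 24 h, with 8458 to 10138 for TGF-β and 9261 to 9342 for SB. The members together made up 0.0224% to 0.0633% of an M2 library, 0.25% to 0.637% of an MDA-MB-231 library and 0.156% to 0.234% of an M1 library. Of the 75 members, 41 to 61 reached 0.5 TPM in an M2 library, 73 to 75 in an MDA-MB-231 library and 73 to 75 in an M1 library. Because abundant genes shift all others, each count is given both from the deposited TPM and after every library was rescaled by its median ratio to the others. At the start the median log2 difference of all genes between M2 and M1 was -0.33 as deposited and -0.10 after rescaling. Between MDA-MB-231 and M1 it was -0.50 as deposited and -0.11 after rescaling.

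At the start the members ranged from 0 to 171 TPM in M2 with a median of 1.31, from 1.68 to 1705 TPM in MDA-MB-231 with a median of 8.44, and from 2.1 to 441 TPM in M1 with a median of 5.75. The M1 over M2 ratio ran from 2.52 to 36.5 with a median of 3.23, reached 5 in 15 members and reached 10 in 6. The name "lost" holds in full for few of them. In M2, 17 members averaged under 0.5 TPM, 41 averaged at least 1 TPM and 5 at least 10 TPM, and rank 13 was listed at 0 in all 6 start libraries. MDA-MB-231 averaged above M1 in 49 members, at least 2 times M1 in 19 and at least 4 times in 8, with all 6 MDA-MB-231 libraries above all 6 M1 libraries in 27 members, where 8.28% of 19376 genes lay so. The rule used these libraries, so nothing is read from that count. The highest MDA-MB-231 over M1 ratios were 8.21 at rank 17 and 7.85 at rank 20, and the lowest was 0.703 at rank 39.

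**Figure D1:**
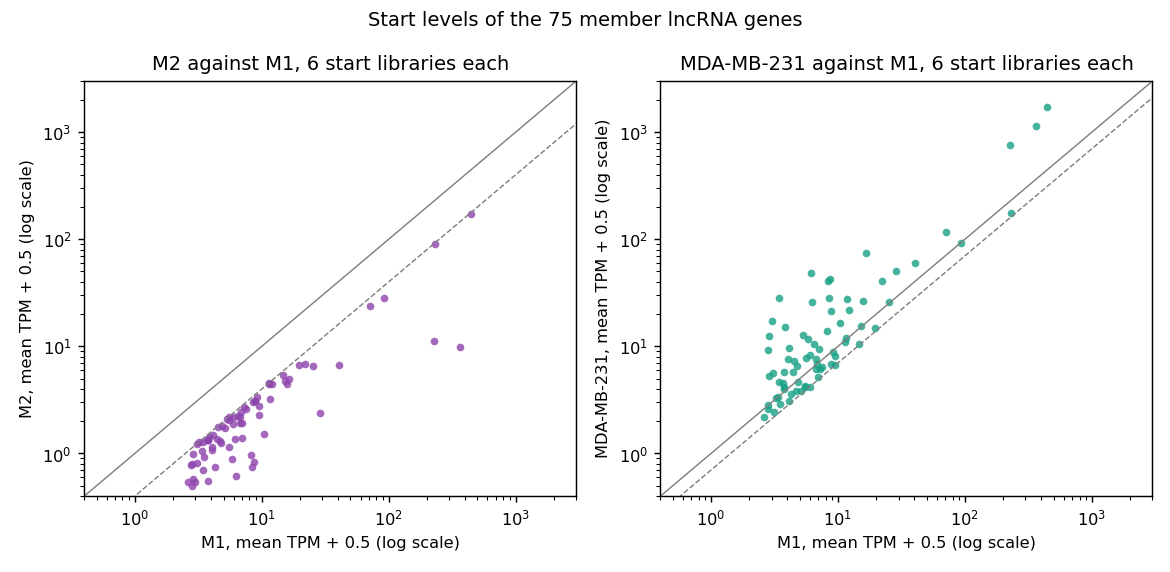
Start level of each of the 75 members, as mean TPM + 0.5 over 6 libraries on log axes, in M2 against M1 (left) and in MDA-MB-231 against M1 (right); the solid line marks equal levels and the dashed line the bound of the rule. All points lie under the dashed bound on the left and above it on the right, as the rule requires, and 49 members lie above the line of equality in MDA-MB-231.

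The last gene inside the ratio bound had an M1 over M2 ratio of 2.52 and the first outside it 2.49. For the MDA-MB-231 over M1 bound these values were 0.703 and 0.70, and for the M1 mean 2.1 and 1.99 TPM. Without the MDA-MB-231 bound, 448 genes would have met the rule, of which the members made up 16.7% and 373 genes (83.3%) fell under that bound. Those 373 genes had median start levels of 1.2 TPM in M2, 0.766 TPM in MDA-MB-231 and 5.68 TPM in M1. Most lncRNA genes that were low in M2 by this rule thus lay under 0.7 times the M1 value in MDA-MB-231. That bound is looser than the one set for M2. The share of all genes under it was not counted, and their median log2 difference between MDA-MB-231 and M1 was already -0.50 as deposited. After median-of-ratios rescaling 50 genes met the rule, and 32 of them were members, which is 42.7% of the members and 64% of the 50. From the 3 non-stimulated libraries of each line alone, 108 genes met the rule. Of the first 100 of them 60 were members, which is 80% of the members. From the 3 earliest SB libraries alone 112 genes met it. Of the first 100 of those 55 were members, which is 73.3% of the members.

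The first 2 ranks carry consecutive catalogue numbers and stood far above the next 8 in M1. Rank 1, NONHSAG055583.2, had 14.4, 14.8 and 7.45 TPM in the non-stimulated M2 libraries, 1183, 1306 and 933 TPM in those of MDA-MB-231, and 300.3, 378 and 386 TPM in those of M1. Rank 2, NONHSAG055582.2, had 12.1, 13.6 and 7.15 TPM in M2, 710.4, 847 and 701 TPM in MDA-MB-231, and 188, 225 and 241 TPM in M1. The 3 lines did not overlap for either gene, which the rule required of M1 and M2, and MDA-MB-231 was the highest. Over all 24 libraries of a line, the rank 2 level over the rank 1 level was 0.747 to 2.44 in M2 (median 1.33), 0.60 to 0.774 in MDA-MB-231 (median 0.713) and 0.563 to 0.716 in M1 (median 0.649). The pair therefore kept a steady proportion in MDA-MB-231 and M1 and varied more at the low M2 levels. Whether reads are shared between them could not be checked, and since no strand setting is stated, reads of genes that overlap, on either strand, cannot be told apart.

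Ranks 3 to 10 were low-level genes in M2. Their start means lay between 0.048 TPM (rank 9) and 1.87 TPM (rank 3) in M2, between 5.30 TPM (rank 9) and 50.3 TPM (rank 3) in MDA-MB-231, and between 3.25 TPM (rank 9) and 28.1 TPM (rank 3) in M1. Rank 5 had 0.283, 0.795 and 0.484 TPM in the non-stimulated M2 libraries, 56.7, 48.1 and 32.5 TPM in those of MDA-MB-231 and 7.79, 8.4 and 7.74 TPM in those of M1. No library of a line reached the range of another, which the rule required of M1 and M2. Rank 75, the last inside, averaged 0.739 TPM in M2, 1.95 TPM in MDA-MB-231 and 2.62 TPM in M1 over the start libraries.

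**Figure D2:**
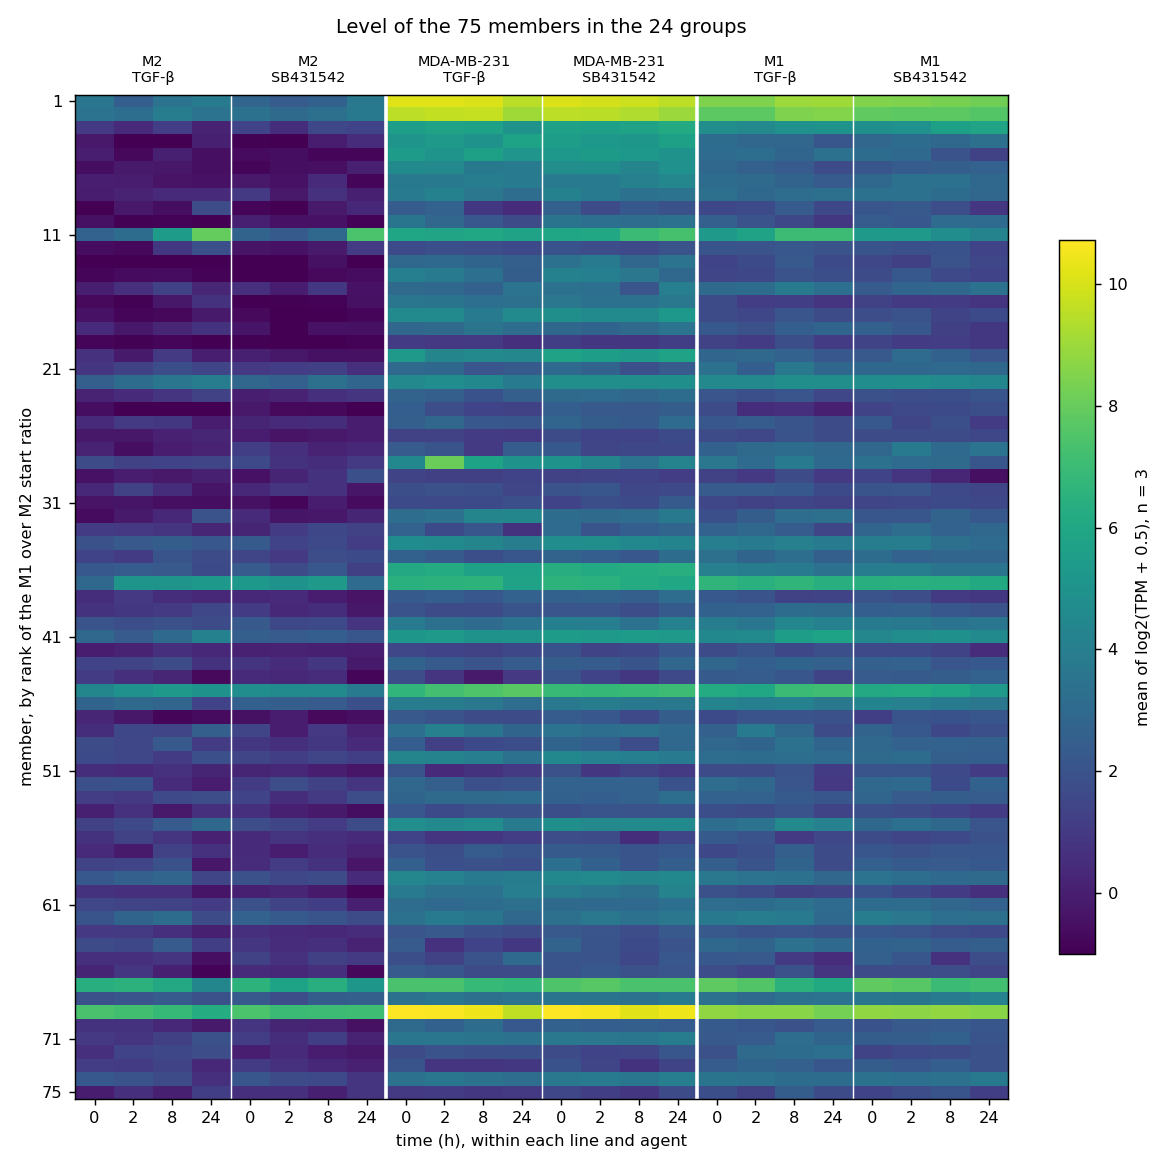
Mean log2(TPM + 0.5) of each member (down, by rank) in each of the 24 groups (across, by line, agent and hours; n = 3 libraries per cell). The M2 columns are darker than the other lines in nearly every member, rank 11 brightens in M2 at 24 h of both agents, and rank 28 is brightest in MDA-MB-231 at 2 h of TGF-β.

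The libraries taken at 2, 8 and 24 h did not enter the rule, so they were used to ask whether the M2 level stayed below the M1 level. Differences were tested with limma on log2(TPM + 0.5) with Benjamini-Hochberg adjustment over all genes tested. An adjusted p under 0.05 counted as a call. On this scale the change of low genes is understated. All 75 members were tested, among 21857 genes. Ranks 10, 13, 14, 17, 19 and 24 passed the filter on low values only through M1 and so had to differ, and counts are also given for the 69 members that passed it within M2.

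As deposited, the level in M2 stayed below that in M1 for most members at every later hour in both arms. With TGF-β, 67 members were lower in M2 at 2 h, 65 at 8 h and 60 at 24 h, where 22.1%, 29% and 45.4% of all genes tested were lower. With SB, 72 were lower at 2 h, 68 at 8 h and 67 at 24 h, against 37.2%, 40.8% and 51.4% of all genes. Among the 69 members the counts were 61, 59 and 54 with TGF-β, beside 22.8%, 29.4% and 51.9% of the 16958 genes that passed within M2. With SB they were 66, 62 and 61, beside 40.6%, 43.7% and 57.1%. The members' median log2 difference lay between -2.06 and -1.69 over the 6 comparisons, and that of all genes between -0.78 and -0.39. After rescaling, 53, 52 and 39 members were lower with TGF-β and 61, 53 and 47 with SB, in order of time. The background after rescaling was 11%, 11.8% and 17.8% of genes lower with TGF-β and 12.1%, 17.8% and 22.9% with SB. Among the 69 members the rescaled counts were 47, 46 and 33 with TGF-β, beside 10.6%, 10.7% and 18.7% of the genes that passed within M2. With SB these rescaled counts were 55, 47 and 41, beside 12.1%, 18% and 24.1%. The rescaled members' medians ran from -1.42 to -0.73, with the smallest difference at 24 h of TGF-β, where all genes had a median of -0.18.

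**Figure D3:**
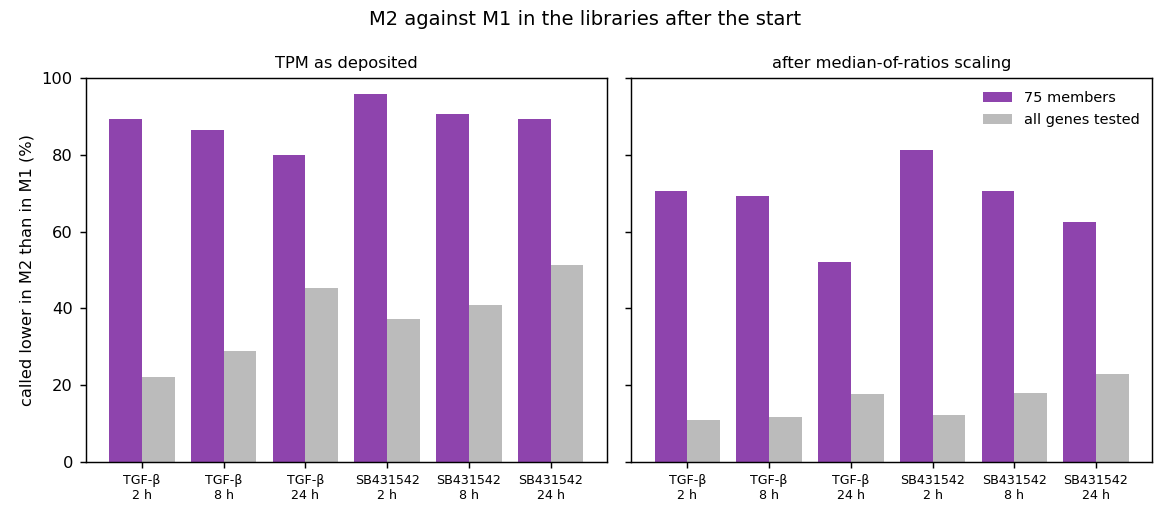
Share of the 75 members and of all 21857 genes tested that limma called lower in M2 than in M1, as a percentage on a linear axis, for each agent and hour; TPM as deposited on the left and after median-of-ratios rescaling on the right. The members' bar is taller than the bar of all genes in each of the 12 pairs, and both scales put the smallest share of members at 24 h of TGF-β.

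Lower in M2 in all 6 later comparisons were 50 members, and a further 10 were lower in 5 of them, where 9.45% and 9.6% of all genes tested did so. After rescaling these were 27 and 9 members, beside 1.76% and 2.2% of genes. For 31 members each of the 18 later M2 libraries lay below each of the 18 later M1 libraries, as 3.08% of genes did. After rescaling it was 15 members and 0.892% of genes. Of the 69 members that passed the filter within M2, 44 were lower in all 6 comparisons and 27 were without overlap, beside 10.9% and 3.25% of such genes. After rescaling these were 21 and 12 members, beside 1.75% and 0.772% of such genes. Rank 1 had 15.1, 11.5 and 13.4 TPM in M2 at 24 h of TGF-β, against 511, 566 and 542 TPM in M1, a log2 difference of -5.30 ± 0.20 (SE, adjusted p = 1.5e-22). Rank 3 had 0.447, 0.622 and 0.857 TPM in M2 there, against 27.6, 33 and 33.4 TPM in M1, a log2 difference of -4.81 ± 0.33 (adjusted p = 1.5e-14). After rescaling the differences of ranks 1 and 3 were -4.075 and -3.975. Neither gene overlapped between the lines. Rank 4 was listed at 0 in all 3 M2 libraries at 8 h of TGF-β and averaged 6.94 ± 0.92 TPM in M1 (SD, n = 3; adjusted p = 2.6e-13). At the other end, ranks 29, 37 and 65 were lower in M2 in 2 or fewer of the 6 comparisons. Rank 37 spread widely already at the start, from 0.363 to 47.3 TPM over the 6 M2 libraries.

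The genes called higher in M2 were few, and rank 11 led them. With TGF-β at 24 h it was the only member called higher as deposited, against 7 after rescaling. With SB at 24 h the count was 2 on both scales, rank 11 and rank 29. The background of genes higher in M2 at 24 h was 2.66% with TGF-β and 3.07% with SB, and 14.2% and 15.2% after rescaling.

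Rank 11, NONHSAG114418.1, started at 6.95, 8.24 and 3.61 TPM in non-stimulated M2, 61.4, 59.8 and 57.3 TPM in MDA-MB-231, and 30.6, 40.2 and 46.6 TPM in M1. At 24 h of TGF-β it had 276, 235 and 246 TPM in M2, 65.1, 43.5 and 54.7 TPM in MDA-MB-231 and 120, 131 and 140.4 TPM in M1. At 24 h of SB it had 196, 171 and 146 TPM in M2, 153, 175 and 149 TPM in MDA-MB-231 and 20.9, 16.4 and 18.8 TPM in M1. M2 had thus become the line with the highest level at 24 h of TGF-β, with no overlap, and it overlapped MDA-MB-231 at 24 h of SB. The M2 minus M1 log2 difference at 24 h was 0.95 ± 0.25 with TGF-β (adjusted p = 0.0020) and 3.16 ± 0.25 with SB (adjusted p = 6.7e-13). The gene was called in the same direction under all 14 alternatives to the analysis in both comparisons. At 8 h of TGF-β it stood at 44.8 ± 11.6 TPM in M2, and at 8 h of SB at 7.40 ± 3.02 TPM (n = 3 each).

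Rank 29 reached 2.98, 3.07 and 3.3 TPM in M2 at 24 h of SB, against 0, 0 and 0.829 TPM in M1 (log2 difference 2.38 ± 0.47, adjusted p = 5.3e-05). The groups did not overlap, and the M1 level there was itself under its start range of 1.01 to 4.54 TPM. At 24 h of TGF-β rank 29 had 0.335, 0.715 and 0.564 TPM in M2, against 1.64, 1.35 and 1.35 TPM in M1, and was not called (adjusted p = 0.10).

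All 3 M2 libraries reached at least the lowest M1 start library for 8 members at 24 h of TGF-β, for 2 at 24 h of SB, for 1 at 8 h of TGF-β, and for 0 in the other 3 later groups. These are counts against start values that chose the members, and carry no test. They were taken from the deposited TPM alone, and no share over all genes was counted. The mean rescaling factor, by which values are divided, was 0.507 in M2 at 24 h of TGF-β and 0.622 at 24 h of SB. In the M1 start groups it was 1.525 (TGF-β arm) and 1.433 (SB arm). Rescaling thus raises these M2 levels relative to the M1 start range, and the counts can change with the scaling. The 8 members at 24 h of TGF-β were ranks 9, 11, 12, 32, 48, 55, 71 and 72. Rank 9 averaged 2.78 ± 0.90 TPM in M2 there, against 2.49 ± 0.76 TPM in M1, and rank 12 averaged 3.23 ± 0.76 TPM in M2, against 3.54 ± 0.81 TPM in M1. Neither difference passed the test (adjusted p = 0.80 and 0.79). Rank 48 averaged 5.52 ± 1.28 TPM in M2, against 2.91 ± 0.77 TPM in M1, and did not pass either (adjusted p = 0.14). For ranks 32, 55, 71 and 72 the M1 level in the same hour was higher, so that M2 stayed lower by the test. Rank 72 illustrates this, at 2.97, 2.27 and 3.64 TPM in M2 and 8.11, 8.43 and 11.7 TPM in M1 (log2 difference -1.52, adjusted p = 3.7e-05).

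The level kept by MDA-MB-231 was followed to 24 h in both arms. Against M2, 57 members were higher and 2 lower in MDA-MB-231 with TGF-β, and 71 higher and 0 lower with SB. The background was 24.2% higher and 10.4% lower with TGF-β, and 31.5% higher and 8.19% lower with SB. Of the 69 members that passed the filter within M2, 51 were higher with TGF-β and 65 with SB, beside 21.4% and 27.6% of such genes. After rescaling the counts were 54 and 2 with TGF-β, beside 23.4% and 19.8% of genes, and 66 and 2 with SB, beside 21.7% and 16.9%. Of the 69 members, 48 were then higher with TGF-β and 60 with SB, beside 19.3% and 17.1% of genes that passed within M2. The members' median log2 difference was 1.83 with TGF-β and 2.88 with SB, where all genes had 0.24 and 0.42. Among the largest, rank 4 had 61.3, 47 and 59.5 TPM in MDA-MB-231 at 24 h of TGF-β, against 0.517, 0.63 and 0.415 TPM in M2 (5.78 ± 0.31, adjusted p = 1.1e-18). Rank 20 had 59.2, 51.5 and 51.2 TPM in MDA-MB-231 at 24 h of SB, against 0.227, 0.137 and 0.345 TPM in M2 (6.22 ± 0.35, adjusted p = 3.7e-18). Both genes were without overlap. The 2 members lower in MDA-MB-231 with TGF-β were ranks 9 and 11, both among those that reached the M1 start range in M2.

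Against M1, MDA-MB-231 was higher in 26 members and lower in 12 at 24 h of TGF-β, and higher in 40 and lower in 3 (ranks 27, 44 and 68) at 24 h of SB. The background ran the other way, with 9.98% of genes higher and 36.4% lower with TGF-β, and 11.8% higher and 34.6% lower with SB. Rescaling moved the split to 42 higher and 5 lower with TGF-β, beside 20.2% and 26.1% of genes, and to 59 higher and 1 lower with SB, beside 18.9% and 24.4%. The members' median log2 difference was 0.20 with TGF-β and 0.65 with SB as deposited, and 0.89 and 1.09 after rescaling. Rank 4 had 61.3, 47 and 59.5 TPM in MDA-MB-231 at 24 h of TGF-β, against 5.14, 3.52 and 3.26 TPM in M1 (3.67 ± 0.25, adjusted p = 1.9e-15). Rank 60, low in the ranking, had 20.5, 18.9 and 16.9 TPM in MDA-MB-231 at 24 h of SB, against 1.14, 0.404 and 1.72 TPM in M1 (3.69 ± 0.31, adjusted p = 8.4e-13). The 3 MDA-MB-231 libraries lay above the 3 M1 libraries in both cases. In the other direction rank 72 had 3.62, 2.49 and 3.61 TPM in MDA-MB-231 at 24 h of TGF-β, against 8.11, 8.43 and 11.7 TPM in M1 (-1.40 ± 0.23, adjusted p = 3.5e-06). Rank 68 at 24 h of SB was the single named difference whose sign turned, from -0.42 as deposited to 0.08 after rescaling.

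The whole pattern of the rule, lower in M2 than in M1, higher in MDA-MB-231 than in M2 and not called lower in MDA-MB-231 than in M1, was met at 24 h by 48 members with TGF-β, by 63 with SB and by 44 in both arms. Of the 18489 genes tested in all these comparisons 12.2%, 16.1% and 7.63% met it. After rescaling 36, 46 and 30 members met it, beside 5.75%, 6.46% and 2.44% of genes. These 24 h libraries did not enter the rule. Of the 69 members that passed the filter within M2, 38 met the pattern in both arms, beside 7.92% of such genes. After rescaling 24 met it, beside 2.41%.

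TGF-β and SB were then compared hour by hour within each line, which asks how the members respond to the ligand against the receptor inhibitor. All 75 members were tested in MDA-MB-231 and M1, and the 69 that passed the filter on low values were tested in M2. As deposited, more members were higher than lower with TGF-β at 24 h in M2, more were lower in MDA-MB-231, and both directions were common in M1.

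In M2, 1 member (rank 34) was higher and 0 lower with TGF-β at 2 h, 6 higher and 0 lower at 8 h, and 13 higher and 3 lower at 24 h. The background was 4.03%, 6.04% and 3.13% of genes higher and 0.106%, 0.885% and 7.55% lower. After rescaling the counts were 0 and 0 at 2 h, 6 and 0 at 8 h, and 24 and 4 at 24 h. The rescaled background was 1.85%, 6.33% and 9.56% of genes higher and 0.519%, 4.88% and 8.48% lower. At an unadjusted p under 0.05 the rescaled 2 h comparison held 4 members. The 2 h count was 0 without any of the 3 TGF-β libraries or SB replicates 2 or 3, and 8 without SB replicate 1. The 8 h count was 10 without TGF-β replicate 1, and 2 without TGF-β replicate 2 or 3 or SB replicate 2. At 2 h and 8 h so few members were called that nothing is read from these counts about the members as a set.

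The members higher in M2 with TGF-β at 24 h were led by ranks 48, 41 and 72. Rank 48, NONHSAG037039.2, had 5.78, 4.13 and 6.65 TPM with TGF-β, against 1.42, 0 and 0.871 TPM with SB (2.43 ± 0.53, adjusted p = 0.0026). Rank 41 had 21.8, 15.3 and 16.1 TPM with TGF-β, against 3.78, 3.61 and 4.28 TPM with SB (2.04 ± 0.31, adjusted p = 4.5e-05). Rank 72 had 2.97, 2.27 and 3.64 TPM with TGF-β, against 0.111, 0.632 and 0.331 TPM with SB (2.04 ± 0.34, adjusted p = 0.00017). The 2 arms did not overlap in any of these. Rank 11 was higher with TGF-β at 8 h (2.56 ± 0.31, adjusted p = 7.7e-06) but was not called at 24 h, when its level was high in both arms. The members lower with TGF-β were ranks 29, 65 and 69. Rank 65 had 0.28, 0.236 and 0.0873 TPM with TGF-β, against 1.16, 1.61 and 1.79 TPM with SB (-1.52 ± 0.36, adjusted p = 0.0058).

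In MDA-MB-231, 1 member was higher and 1 lower with TGF-β at both 2 h and 8 h, and 2 were higher and 10 lower at 24 h. The higher one was rank 28 at both hours, the lower one rank 20 at 2 h and rank 11 at 8 h, and the 2 higher at 24 h were ranks 28 and 45. The background was 0.489% higher and 0.652% lower at 2 h, 0.671% and 0.266% at 8 h, and 0.646% and 3.74% at 24 h. After rescaling the counts were 5 higher and 2 lower at 2 h, 3 and 6 at 8 h, and 5 and 4 at 24 h. On that scale lower members thus no longer outnumbered higher ones at 24 h. The rescaled background was 1.59% higher and 1.43% lower at 2 h, 1.27% and 0.767% at 8 h, and 1.96% and 1.14% at 24 h. The members' median at 24 h was -0.51 as deposited and -0.06 after rescaling, where all genes had -0.33 and -0.01. The 2 h count fell to 1 without TGF-β replicate 2 or SB replicate 1 or 3. The 24 h count fell to 6 without TGF-β replicate 2 or SB replicate 3, and to 7 without TGF-β replicate 3 or SB replicate 2.

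Rank 28 gave the largest TGF-β minus SB difference among the members called, at 2 h in MDA-MB-231, and it was smaller at the later hours. It had 21.3, 23 and 21.6 TPM in the non-stimulated controls, 312, 235 and 277 TPM at 2 h of TGF-β, 62, 50.5 and 56.3 TPM at 8 h and 37.5, 27.7 and 30.5 TPM at 24 h. With SB it had 23.3, 18.9 and 17 TPM at 2 h, 9.05, 10.7 and 12.1 TPM at 8 h and 22.8, 20 and 13.5 TPM at 24 h. The TGF-β libraries lay above the SB libraries at all 3 hours, and the highest values were those at 2 h. The log2 difference was 3.77 ± 0.19 at 2 h (adjusted p = 6.8e-12), 2.36 ± 0.19 at 8 h (adjusted p = 2.7e-08) and 0.77 ± 0.19 at 24 h (adjusted p = 0.023). The first 2 were called under all 14 alternatives, and the last under 10 of 14. At 2 h of TGF-β rank 28 averaged 2.24 ± 1.47 TPM in M2 and 8.35 ± 2.02 TPM in M1, and neither line called it at that hour. Whether the 2 h responses differ between lines was not tested.

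Among the 10 members called lower in MDA-MB-231 at 24 h of TGF-β, rank 10 had the largest difference, with 3.07, 2.07 and 3.17 TPM, against 12, 8.18 and 10.8 TPM with SB (-1.73 ± 0.27, adjusted p = 0.00045). Rank 11 had 65.1, 43.5 and 54.7 TPM with TGF-β there, against 153, 175 and 149 TPM with SB (-1.55 ± 0.19, adjusted p = 2.3e-05). The arms did not overlap in either gene. Rank 45, higher with TGF-β, had 241, 174 and 229.8 TPM with TGF-β, against 132, 131 and 133 TPM with SB (0.69 ± 0.17, adjusted p = 0.021). It kept its call under 8 of 14 alternatives.

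In M1, 2 members were higher and 0 lower with TGF-β at 2 h, 13 higher and 2 lower (ranks 3 and 10) at 8 h, and 14 higher and 11 lower at 24 h. The background was 1.03% higher and 0.321% lower at 2 h, 5.41% and 2.89% at 8 h, and 4.18% and 10.4% at 24 h. After rescaling the 24 h counts were 24 higher and 10 lower, and those at 2 h and 8 h were 2 and 0, and 13 and 4. The rescaled background was 1.33% higher and 0.445% lower at 2 h, 5.24% and 4.15% at 8 h, and 7.6% and 5.67% at 24 h. Without SB replicate 3 the 2 h count was 1. Rank 11 rose the most, with 120, 131 and 140.4 TPM at 24 h of TGF-β, against 20.9, 16.4 and 18.8 TPM with SB (2.78 ± 0.14, adjusted p = 2.0e-12). Rank 55 had 18.7, 17.4 and 17.2 TPM with TGF-β, against 5.62, 2.74 and 3.25 TPM with SB (2.12 ± 0.22, adjusted p = 3.8e-07). Rank 10 fell the most, to 1.68, 0.871 and 1.74 TPM with TGF-β, against 8.7, 7.33 and 8.41 TPM with SB (-2.20 ± 0.24, adjusted p = 6.7e-07). All 3 genes were without overlap between the arms.

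The earliest M1 response was that of ranks 48 and 72. Rank 48 had 16.1, 15.2 and 12.4 TPM at 2 h of TGF-β, against 4.5, 5.87 and 2.68 TPM with SB (1.68 ± 0.33, adjusted p = 0.0066). Rank 72 had 6.76, 6.49 and 10.3 TPM at 2 h of TGF-β, against 2.36, 1.99 and 3.22 TPM with SB (1.46 ± 0.23, adjusted p = 0.00064). By 24 h rank 48 in M1 was at 2.91 ± 0.77 TPM with TGF-β and 3.39 ± 1.69 TPM with SB, and its call was gone, while rank 72 stayed higher (1.36). Rank 48 thus was called at 2 h and 8 h but not at 24 h in M1, and at 24 h but not at 2 h or 8 h in M2.

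**Figure D4:**
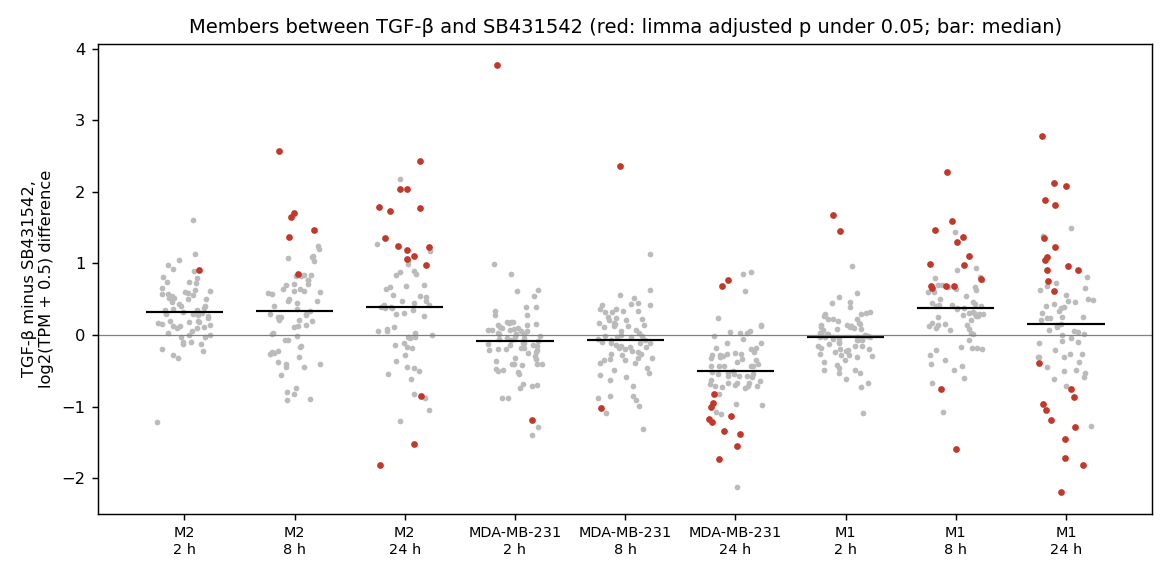
TGF-β minus SB difference of each tested member on the log2(TPM + 0.5) scale, by line and hour; red points have a limma adjusted p under 0.05 and the bar is the median of the members. Rank 28 is the red point at 3.77 in MDA-MB-231 at 2 h, and the median in MDA-MB-231 at 24 h is -0.51.

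Of the 13 members higher with TGF-β in M2 at 24 h and the 14 in M1, 7 were shared (53.8% and 50%), namely ranks 18, 32, 34, 39, 41, 45 and 72. Over all genes tested in both lines, the shared genes were 57.3% of those higher in M2 and 35.7% of those higher in M1. After rescaling 14 members were shared, of 24 in M2 and 24 in M1, and over all genes the shares were 46% and 49.7%. No library is shared between the lines. Of the 10 members lower with TGF-β in MDA-MB-231 and the 11 in M1, 5 were shared (50% and 45.5%), namely ranks 3, 6, 10, 24 and 69. Over all genes the shared ones were 25.9% of those lower in MDA-MB-231 and 7.6% of those lower in M1. After rescaling 2 members were shared, of 4 in MDA-MB-231 and 10 in M1, and over all genes the shares were 21.8% and 3.73%. As deposited, rank 45 was higher and rank 69 was lower with TGF-β in all 3 lines. Rank 69, the most abundant member at the start in all 3 lines, had 85.8, 67.2 and 74.8 TPM in M2 with TGF-β, against 159, 152 and 106 TPM with SB. In MDA-MB-231 it had 928, 594 and 855 TPM with TGF-β, against 1485, 1425 and 1229 TPM with SB, and in M1 it had 281, 316 and 324 TPM with TGF-β, against 397, 426 and 379 TPM with SB. Its arms did not overlap in any line. In M2 that call of rank 69 held under 7 of 14 alternatives, and the log2 difference went from -0.85 as deposited to -0.57 after rescaling. The mean rescaling factor at 24 h was 0.70 with TGF-β and 0.98 with SB in MDA-MB-231, and 1.18 and 1.42 in M1. Dividing by these factors makes the fall of rank 69 smaller in both lines, and its rescaled calls there are not given here.

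The difference between lines in the 24 h response was tested as an interaction. Between M2 and M1 it was called for 7 members, 3 higher (ranks 10, 24 and 48) and 4 lower (ranks 2, 5, 11 and 29), beside 0.837% of genes higher and 1.29% lower. After rescaling 9 were higher and 4 lower, beside 2.26% and 2.86% of genes. The count was 4 without M1 SB replicate 1, M2 TGF-β replicate 1 or M2 TGF-β replicate 2, and 3 without M2 SB replicate 2. For ranks 5, 10 and 24 the M2 mean stayed under 0.5 TPM in both arms at 24 h, at most 0.254, 0.0485 and 0.0148 TPM, so no M2 response could be measured and their calls restate the M1 response. Both lines reached a mean of 0.5 TPM in an arm for 58 members, and among these 1 was higher (rank 48) and 3 lower (ranks 2, 11 and 29), beside 0.946% and 2.36% of such genes. After rescaling these were 7 and 3, beside 3.22% and 5.41%. Rank 48 gave 2.55 ± 0.65 (adjusted p = 0.024), called under 13 of 20 alternatives, and rank 29 gave -3.31 ± 0.66 (adjusted p = 0.0017), called under all 20. Rank 2 gave -1.25 ± 0.30 (adjusted p = 0.014) and was called under 16 of 20. For rank 11 the TGF-β minus SB difference in M2 was below that in M1 (-2.21 ± 0.35, adjusted p = 7.1e-05), with a high level in both arms of M2.

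Between MDA-MB-231 and M1 the interaction was called for 21 members, 2 higher (ranks 4 and 52) and 19 lower, beside 1.64% of genes higher and 3.57% lower, and for 4 higher and 18 lower after rescaling, beside 3.08% and 4.03%. All 75 members reached a mean of 0.5 TPM in an arm of both lines, and such genes were called higher in 1.51% and lower in 4.65% as deposited, and in 4.09% and 5.02% after rescaling. Rank 11 stood out with -4.33 ± 0.24 (adjusted p = 5.0e-16), since SB was the arm with the higher level in MDA-MB-231 and TGF-β the one with the higher level in M1. Rank 55 followed with -2.84 ± 0.39 (adjusted p = 4.0e-06). It had 16.9, 14.1 and 11.7 TPM with TGF-β in MDA-MB-231, against 27.6, 25.8 and 18.1 TPM with SB, and in M1 it was higher with TGF-β as given above. Rank 18 gave -2.17 ± 0.47 (adjusted p = 0.0023). The 2 members with a higher difference, rank 4 at 1.33 ± 0.35 (adjusted p = 0.017) and rank 52 at 1.76 ± 0.50 (adjusted p = 0.029), were lower with TGF-β in M1 and not called in MDA-MB-231. Rank 4 was called under 16 of 20 alternatives and rank 52 under 14.

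**Figure D5:**
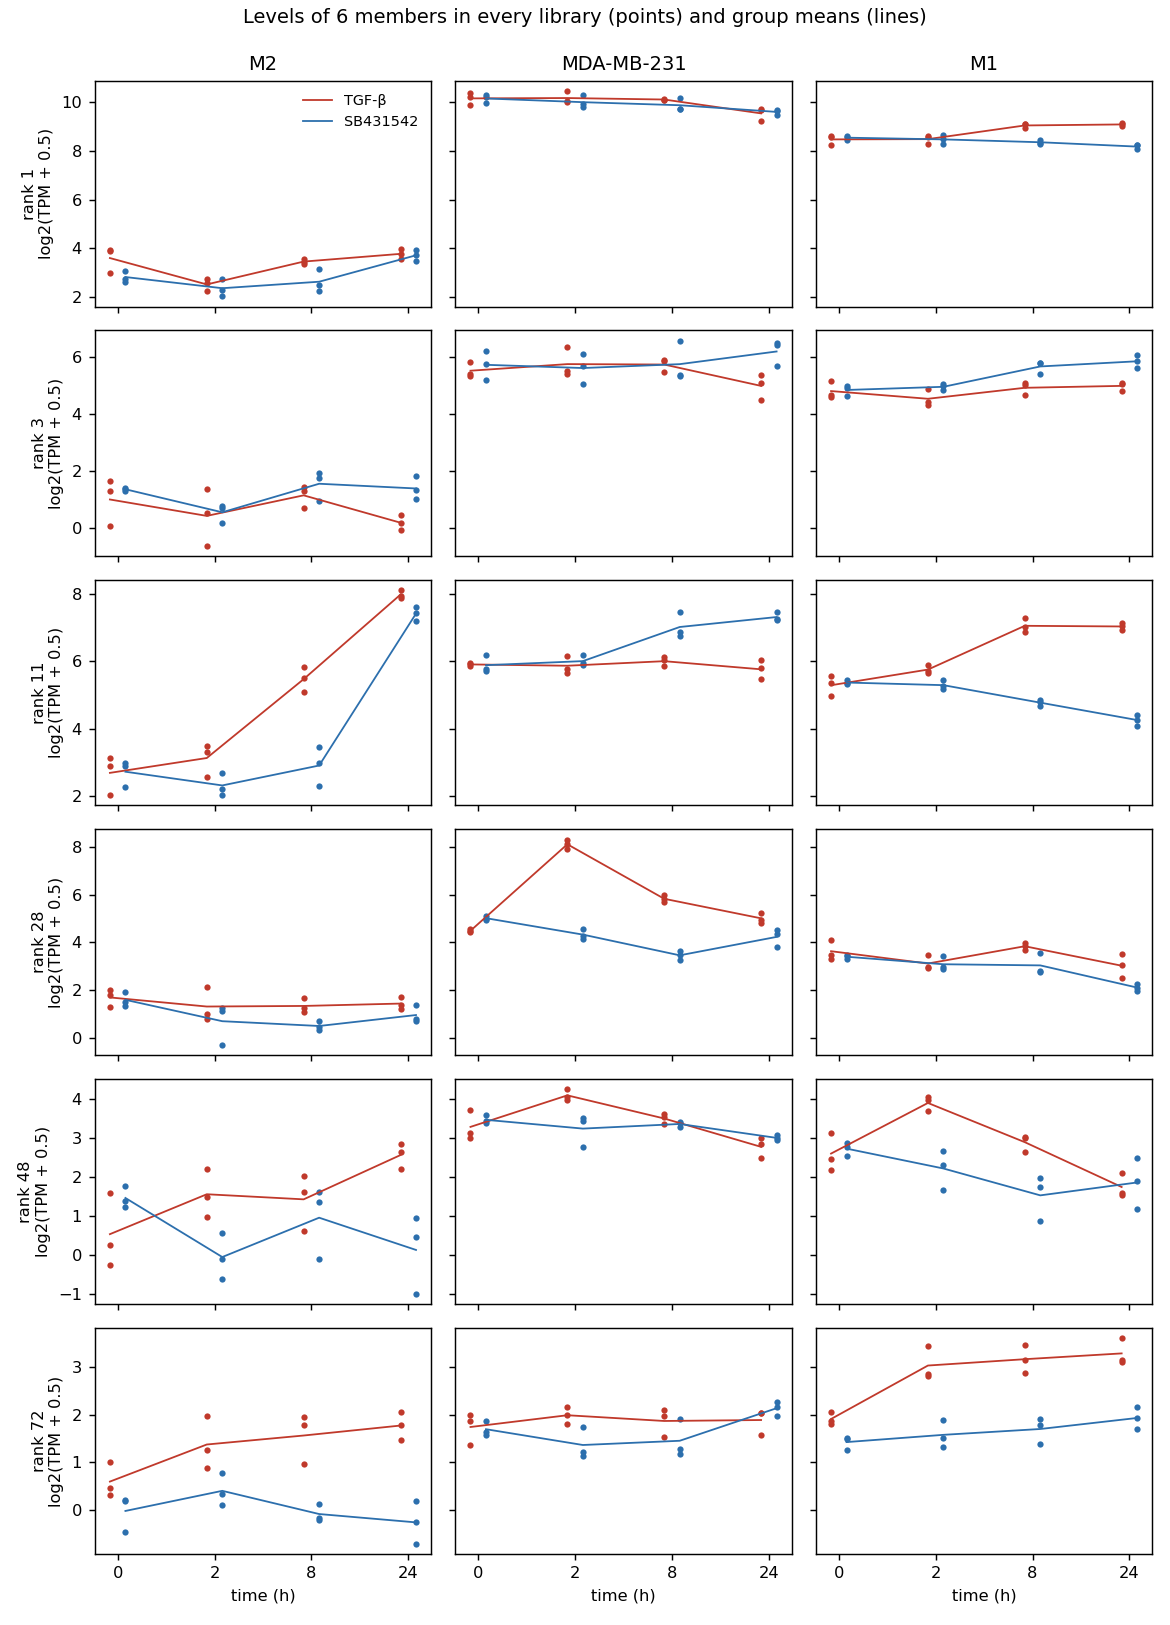
Level of ranks 1, 3, 11, 28, 48 and 72 on the log2(TPM + 0.5) scale in every library (points) with group means (lines), by line and hour, TGF-β in red and SB in blue; hours are evenly spaced and not to scale, and each gene has its own vertical axis. Rank 11 climbs in both arms of M2 by 24 h, and rank 28 peaks at 2 h of TGF-β in MDA-MB-231.

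Change over time was tested between 24 h and 2 h, since the start libraries chose the members. In M2 with TGF-β, 15 of the 69 members tested were higher and 15 lower at 24 h, beside 2.82% of genes higher and 38.7% lower. After rescaling, which brought the background to 14.7% higher and 13.7% lower, 28 members were higher and 7 lower. The median of all genes there was -0.67 as deposited and -0.09 after rescaling. In M2 with SB, 8 were higher and 7 lower, beside 3.29% and 11.5% of genes, and 15 higher and 5 lower after rescaling, beside 11.3% and 9.42%. The SB count of 15 was 9 without SB replicate 1 of the 2 h group or without replicate 2 of the 24 h group. The members' own median with TGF-β turned its sign, from -0.10 as deposited to 0.66 after rescaling.

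Higher at 24 h in both arms of M2 were ranks 1, 4, 9, 11, 12 and 53, which is 40% of those higher with TGF-β and 75% of those higher with SB, where the shares over all genes were 39.5% and 33.9%. Lower in both were ranks 30, 44, 58, 66 and 74, which is 33.3% and 71.4%, where all genes gave 24.6% and 82.8%. After rescaling 11 members were higher in both arms, of 28 with TGF-β and 15 with SB, and over all genes the shares were 49.4% and 64.4%. Lower in both were then 4 members, of 7 with TGF-β and 5 with SB, and over all genes the shares were 35.4% and 51.4%. Rank 11 had 276, 235 and 246 TPM at 24 h of TGF-β, against 10.8, 9.49 and 5.44 TPM at 2 h (4.85 ± 0.31, adjusted p = 3.3e-11), and with SB the difference was 5.10 ± 0.31 (adjusted p = 1.4e-10). Rank 12 had 4.09, 2.93 and 2.66 TPM at 24 h of TGF-β, against 0.172, 0.144 and 0 TPM at 2 h (2.62 ± 0.34, adjusted p = 1.8e-06). Rank 1 had 15.1, 11.5 and 13.4 TPM at 24 h of TGF-β, against 5.43, 4.32 and 6.21 TPM at 2 h (1.25). The hours did not overlap in these genes, and the 24 h level of rank 1 was close to the 14.4, 14.8 and 7.45 TPM of the controls. Among those that fell, rank 67 had 31, 23.2 and 12.3 TPM at 24 h of TGF-β, against 92.9, 82.6 and 107 TPM at 2 h (-2.15 ± 0.36, adjusted p = 5.4e-05). After rescaling this difference was -1.06. Rank 67 also fell in M1, to 56.7, 65.4 and 90 TPM at 24 h of TGF-β, against 185, 173 and 208 TPM at 2 h (-1.43).

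In MDA-MB-231, 1 member was higher and 12 lower at 24 h than at 2 h with TGF-β, beside 0.894% and 3.93% of genes, and 1 higher and 1 lower (rank 14) with SB, beside 0.665% and 0.332%. The member higher with TGF-β was rank 65, at 7.72 ± 1.48 TPM at 24 h, against 1.97 ± 0.12 TPM at 2 h. After rescaling these were 6 and 10 with TGF-β, beside 3.51% and 4.39% of genes, and 2 and 4 with SB, beside 1.4% and 1.38%. The TGF-β count of 13 was 6 without replicate 1 of the 2 h group and 7 without replicate 2 of the 24 h group. The SB count of 2 was 1 without replicate 1 or 3 of the 2 h group or replicate 2 of the 24 h group. Rank 28 fell the most, by 3.09 ± 0.19 on the log2 scale (adjusted p = 5.3e-10). Rank 9 fell to 1.68, 0.119 and 1.63 TPM at 24 h, against 6.81, 5.29 and 6.08 TPM at 2 h (-2.20 ± 0.36, adjusted p = 0.00068). The single member higher with SB was rank 11, at 153, 175 and 149 TPM at 24 h, against 73, 60.6 and 58.3 TPM at 2 h (1.31 ± 0.19, adjusted p = 0.00075).

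In M1, 6 members were higher and 11 lower at 24 h than at 2 h with TGF-β, beside 1.99% and 10.5% of genes, and 3 higher (ranks 3, 10 and 68) and 9 lower with SB, beside 1.04% and 2.1%. After rescaling the TGF-β counts turned to 13 higher and 5 lower, with the members' median moving from -0.09 to 0.20, beside 5.76% and 4.41% of genes. The SB counts were 3 and 11, beside 1.65% and 2.31%. Without replicate 1 of the 24 h SB group the SB count was 7. The leading pair, ranks 1 and 2, was among the 6 that rose with TGF-β. Rank 2 had 366, 394 and 371 TPM at 24 h of TGF-β, against 212, 215 and 239 TPM at 2 h (0.76), without overlap. Rank 48 fell the most, to 2.54, 3.8 and 2.4 TPM at 24 h, against 16.1, 15.2 and 12.4 TPM at 2 h (-2.16 ± 0.33, adjusted p = 0.00011). In the SB arm rank 5 fell to 1.86, 2.66 and 1.62 TPM at 24 h, against 8.54, 5.71 and 8.65 TPM at 2 h (-1.67 ± 0.28, adjusted p = 0.00068).

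The scatter of replicates within a group was compared between the members and all genes without matching their levels. The median within-group SD on the log2 scale was 0.439 for the members and 0.415 for all genes in M2, 0.346 and 0.39 in MDA-MB-231, and 0.331 and 0.405 in M1. In M2 the members had a median mean level of 1.34 TPM and all genes 1.15 TPM, so most M2 values rest on low levels whose counting error is unknown. These levels were 8.35 and 1.2 TPM in MDA-MB-231 and 5.65 and 1.53 TPM in M1, so the SDs there belong to unlike levels.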

How the data were processed

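The authors deposited TPM values for 96411 NONCODE lncRNA genes, and each of the 72 columns carries the name of its library. The submitters' processing notes list FastQC, cutadapt 2.10, HISAT2 2.2.0, StringTie 1.3.6 and GRCh38, with no annotation release, strand setting or parameters in the sources used. TPM keeps no read depth, so no counting interval could be given. No column was identical to another. The submitters describe 36 samples in their design text but list 72, and they call the triplicates biological. If replicates were not cultured apart, the p-values reflect technical spread only.

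The test was two-sided, on log2(TPM + 0.5), with limma 3.58.1 (trended eBayes, 1 mean per group) in R 4.3.3 with the data.table package, version 1.17.8. A gene entered a fit if 3 or more of its libraries reached 0.5 TPM, and Benjamini-Hochberg adjustment ran over all genes entered. Within a line all 24 libraries (8 groups) were fitted, and between lines 48 (16 groups), for 27 contrasts. The alternatives changed the pseudocount (1 or 0.1), the filter (none, or a mean of 1 TPM or more) or the scaling. The scaling was by the median of ratios, or to a total without the 10 most abundant genes. For the tests the ratios were taken over the genes above 0 in every library of the fit. For the rescaled start levels and the rescaled rule they were taken over 9305 genes above 0 in all 72 libraries. Other alternatives added the replicate number as a block, fitted just the groups being compared, or dropped each library in turn. The fit was tested on simulated data.

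Members, comparisons and alternatives were chosen with earlier results of these data known. The mean of 0.5 TPM asked of both lines beside the interactions was set after their values were seen. Named were the first 10 ranks, the last one, and per comparison the 3 called members of largest difference in each direction without overlap; members singled out in a count of 5 or fewer, or to show a described pattern, were chosen after their values were seen. Identifiers are printed for 4 members: the first 2 ranks, and the 2 with the largest rise at 24 h of TGF-β against SB in any line. Python 3.11.15 with numpy 2.4.6, pandas 2.3.3 and matplotlib 3.10.9 made the summaries and figures.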

Additional observations from a re-analysis of the deposited data

Results flagged for a closer look

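The response at 24 h, as the TGF-β minus SB difference on the log2(TPM + 0.5) scale, differed between lines in 25 results, each by limma's interaction test with Benjamini-Hochberg adjustment over all genes. They are the calls among members that reached a mean of 0.5 TPM in an arm of both lines, and 15 of them were called under every alternative. The other 3 calls between M2 and M1 (ranks 5, 10 and 24) are not counted here, since M2 stayed under that level in both arms.

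Between M2 and M1 the difference was -1.25 ± 0.30 (SE) for rank 2 (adjusted p = 0.014), -2.21 ± 0.35 for rank 11 (adjusted p = 7.1e-05), -3.31 ± 0.66 for rank 29 (adjusted p = 0.0017) and 2.55 ± 0.65 for rank 48 (adjusted p = 0.024). Rank 2 was called under 16 of 20 alternatives and rank 48 under 13, with adjusted p-values of up to 0.078 and 0.15. The calls of ranks 11 and 29 held under all 20.

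Between MDA-MB-231 and M1 the differences called under all 20 alternatives were -0.97 ± 0.20 for rank 1 (adjusted p = 0.0017), -0.91 ± 0.20 for rank 2 (adjusted p = 0.0029), -1.95 ± 0.39 for rank 5 (adjusted p = 0.0012), -4.33 ± 0.24 for rank 11 (adjusted p = 5.0e-16), -2.17 ± 0.47 for rank 18 (adjusted p = 0.0023) and -2.84 ± 0.39 for rank 55 (adjusted p = 4.0e-06). Also so called were -1.34 for rank 22, -1.66 for rank 25, -1.12 for rank 34, -1.30 for rank 39, -1.56 for rank 41, -1.13 for rank 45 and -1.61 for rank 72, with adjusted p-values between 0.00013 (rank 41) and 0.010 (rank 25).

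The other 8 lost the call under some alternative. The difference was -2.07 ± 0.46 for rank 9 (adjusted p = 0.0035, called under 19 of 20) and -1.27 ± 0.32 for rank 40 (adjusted p = 0.010, 19). It was 1.33 ± 0.35 for rank 4 (adjusted p = 0.017, 16) and -1.40 ± 0.36 for rank 20 (adjusted p = 0.014, 16). For rank 50 it was -1.05 ± 0.28 (adjusted p = 0.017, 14) and for rank 52 1.76 ± 0.50 (adjusted p = 0.029, 14). For rank 71 it was -1.31 ± 0.38 (adjusted p = 0.031, 12) and for rank 42 -2.05 ± 0.61 (adjusted p = 0.040, 9). Groups of 3 libraries were too small to look for single outlying samples.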

How the results depend on the processing

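Of 114 named differences, 87 were called under every alternative; of their 1654 alternative values 1515 kept direction and call, 138 lost the call and 1 turned its sign, rank 68 between MDA-MB-231 and M1 at 24 h of SB (0.078 after median-of-ratios scaling). Of 216 alternative counts of called members outside the fits that left out a library, 194 stayed within 1.5 times. Median-of-ratios scaling moved the M2 and M1 interaction to 13 members, TGF-β against SB in M2 to 0 at 2 h and 28 at 24 h, the same in MDA-MB-231 to 7 at 2 h and 9 at 8 h, and 24 h against 2 h of SB in MDA-MB-231 to 6. Scaling to a total without the top 10 genes gave 4 for the interaction, 0 at 2 h and 2 at 8 h for TGF-β against SB in M2, and 7 for the same at 24 h in MDA-MB-231. A pseudocount of 0.1 or no filter gave 3 in M2 at 8 h, and a mean of at least 1 TPM gave 9 for 24 h against 2 h of SB in M2. Fitting the compared groups alone, which leaves fewer libraries to estimate the spread, gave for 24 h against 2 h 10 (TGF-β) and 5 (SB) in M1, 8 (SB) in M2, and 8 (TGF-β) and 1 (SB) in MDA-MB-231, and for TGF-β against SB 0 in M2 at 2 h and 1 at 2 h and 7 at 24 h in MDA-MB-231. The cause of these shifts was otherwise not tested.

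Leaving out each library gave 3 to 6 for the M2 and M1 interaction and 15 to 20 for that of MDA-MB-231 and M1. TGF-β against SB gave 0 to 8, 2 to 10 and 11 to 15 in M2 at 2, 8 and 24 h, 1 to 2, 2 to 3 and 6 to 13 in MDA-MB-231, and 1 to 2, 13 to 16 and 21 to 26 in M1. For 24 h against 2 h it gave 23 to 29 (TGF-β) and 9 to 16 (SB) in M2, 6 to 15 and 1 to 2 in MDA-MB-231, and 13 to 17 and 7 to 10 in M1. M2 against M1 stayed at 57 to 65, 58 to 65 and 59 to 62 with TGF-β and 66 to 72, 64 to 67 and 66 to 69 with SB.

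Same-numbered libraries deviated together little or not at all (correlations from -0.21 to 0.16 within a line), so the numbers were not used as pairs. Such correlations cannot exclude a pairing. With the replicate number as a block, 5 members were called between TGF-β and SB in MDA-MB-231 at 2 h, and no other count moved beyond 1.5 times. Depth is unknown, so how far low M2 levels limit these counts could not be measured.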
